A study of Drosophila melanogaster with 12 samples.

Results

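The 488 autosomal regions described here are the places on the large autosomal arms (2L, 2R, 3L and 3R) where peaks of the Drosophila melanogaster transcription factors Phaser (CG7372) and Saft (CG11247) met. Peaks of 6 lists that overlapped by 1 bp or more were merged, and a region belonged to the set if it held a peak of at least 1 Phaser list and at least 1 Saft list. The set made up 8.16% of the 5977 merged autosomal regions, the other 4225 being Phaser alone and 1264 Saft alone. Members were thus chosen by the measured peaks themselves, and their number is a description that carries no test.

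The study used S2 cells, an embryo-derived Drosophila line, that carry OsTir1, a plant F-box protein that lets auxin trigger the breakdown of proteins bearing an auxin-inducible degron (AID). Phaser_FLAG-AID cells were clone 8D, and Saft_FLAG-AID cells were clones 9C and 4H. In each clone the endogenous gene was tagged homozygously with FLAG and the degron, and every culture was left untreated, so no protein was depleted. ChIP-seq with the FLAG M2 antibody was done on 2 biological replicates of each clone, which gave 6 ChIP libraries beside 6 input libraries. Phaser thus rests on 1 clone, and peaks from cells without the tag were not analysed here.

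A transcription factor binds short stretches of DNA and can raise or lower transcription of nearby genes. Silencers are DNA elements that lower it, and the series comes from a screen for them. In ChIP-seq, DNA crosslinked to a protein is pulled down and sequenced. A place with more reads than its background is called a peak, and the base with the most reads in it is the summit. Shared peaks do not show that both proteins sit on one DNA molecule at one time, since each was mapped in its own cell line.

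The autosomal parts of the lists held 4635 peaks for Phaser replicate 1 and 3501 for replicate 2. The Saft lists were shorter, at 1223 and 1336 peaks from clone 9C, then 1046 and 1118 from clone 4H. Read depth is unknown. Strength is given as the authors' fold enrichment, the linear ratio of ChIP signal over the peak caller's background at the summit, and as −log10 q, from the chance of such a signal under that background after correction for many tests. To set unlike lists side by side, each peak was also given its percentile of −log10 q among the autosomal peaks of its list. The percentile was averaged over those lists of a factor that held a peak in the region, so a missing list did not lower it. All positions are in dm3. No gene names are given, because the gene table at hand is of another build.

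The members ranged from places found once in each factor to places found every time. A peak in all 6 lists was present at 123 regions, 25.2% of the members and 2.06% of all merged autosomal regions. At the other end, 66 regions rested on 1 Phaser and 1 Saft list. Both Phaser lists were present at 207 members and a single one at 281. Of those 281, replicate 1, the longer list, supplied the peak at 276 and replicate 2 at 5. Without Phaser replicate 1 the set shrank from 488 to 209 regions. For Saft, 208 members had all 4 lists, 88 had 3, 93 had 2 and 99 had 1. Both Saft clones were represented at 336 members, clone 9C alone at 92 and clone 4H alone at 60.

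**Figure D1:**
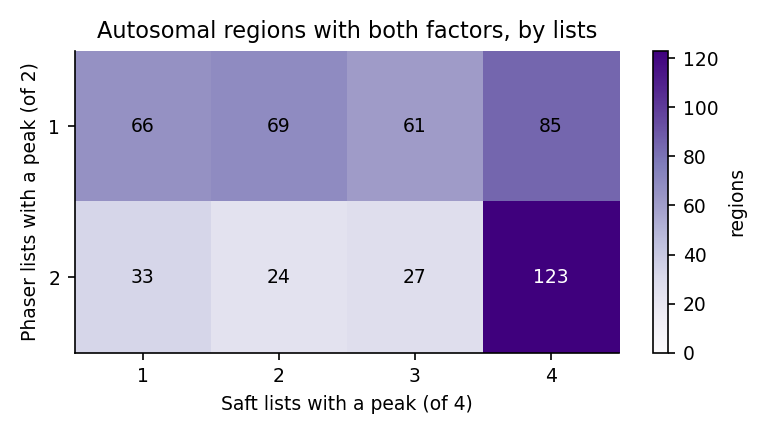
Number of autosomal regions with both factors by the number of Phaser lists (rows, of 2) and Saft lists (columns, of 4) that hold a peak. The fullest cell is that of all 6 lists, with 123 regions, and 85 more lack a single Phaser list.

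Membership fell with reproducibility in Phaser, while in Saft it rose up to 3 lists and fell again at 4. Of the 1489 Phaser regions seen in 1 Phaser list, 281 (18.9%, 95% Wilson interval 17.0 to 20.9) also held Saft, against 207 of 3224 (6.42%, 5.63 to 7.32) of those seen in both. Among Saft regions the share with Phaser was 15.9% (13.2 to 18.9) for those in 1 list, 33.2% (28.0 to 38.9) in 2, 49.7% (42.4 to 57.0) in 3 and 31.0% (27.6 to 34.6) in all 4. The intervals count regions only and do not cover the spread between cultures.

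The drop at 4 lists came with a change in width. Saft regions in all 4 lists without Phaser had a median width of 1363 bp, whereas the 208 with Phaser had one of 425 bp. In Saft regions of 3 lists the medians were 327 bp without and 338.5 bp with Phaser. For Phaser regions in both lists they were 506 bp without and 488 bp with Saft. The merged width grows with the number of peaks joined, so these widths are a description.

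**Figure D2:**
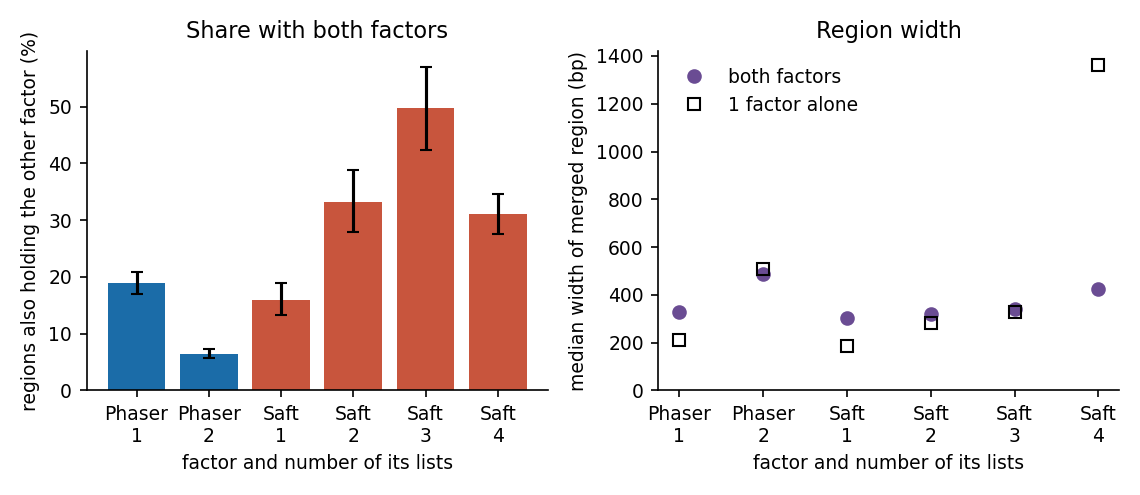
Left, percent of the regions of a factor that also hold the other factor, by the number of its own lists, with 95% Wilson intervals. Right, median width of the merged regions with both factors (filled circles) and with 1 factor alone (open squares), where Saft regions of 4 lists without Phaser stand apart at 1363 bp.

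Shared regions were of middling or low rank in both factors. The median percentile was 27.1 in Phaser and 38.9 in Saft over all members, and 40.8 and 57.1 over the 123 in all 6 lists. A Phaser percentile of 75 or more was reached at 32 members and a Saft percentile of 75 or more at 10, and no member reached 75 in both. With so few at 75 or more in either factor, unrelated ranks would also leave hardly any member in both. The empty overlap was not tested. Both percentiles were 50 or more at 39 members. Of the strongest 25% of autosomal peaks in a list, 2.69% to 3.44% lay at members. In Phaser the share was highest among the weakest 25%, at 17.6% and 10.9% in replicates 1 and 2, against 10.5% and 6.31% over all peaks. In Saft it was highest in the middle ranks. The Saft shares were 20.6% to 32.4% in the weakest 25%, 34.5% to 57.1% in the next 25% and 36.0% to 55.8% in the one above, against 28.2% to 32.2% over all peaks.

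At the 123 regions in all 6 lists the median fold enrichment was 4.46 and 3.50 in Phaser replicates 1 and 2. The Saft medians were 4.35 and 4.17 (clone 9C) and 3.98 and 3.92 (clone 4H). The lowest values of the 6 libraries lay between 1.81 and 2.19, and the highest were 9.42 and 7.31 for Phaser and 12.1 to 16.8 for Saft. Thus the upper tail was longer in Saft, while the medians were close together. Across these 123 regions, Spearman's rho of fold between libraries of the same factor was 0.544 to 0.746, and between a Phaser and a Saft library 0.185 to 0.313. The points share their regions and the peak caller's method, and rho is given as a description.

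**Figure D3:**
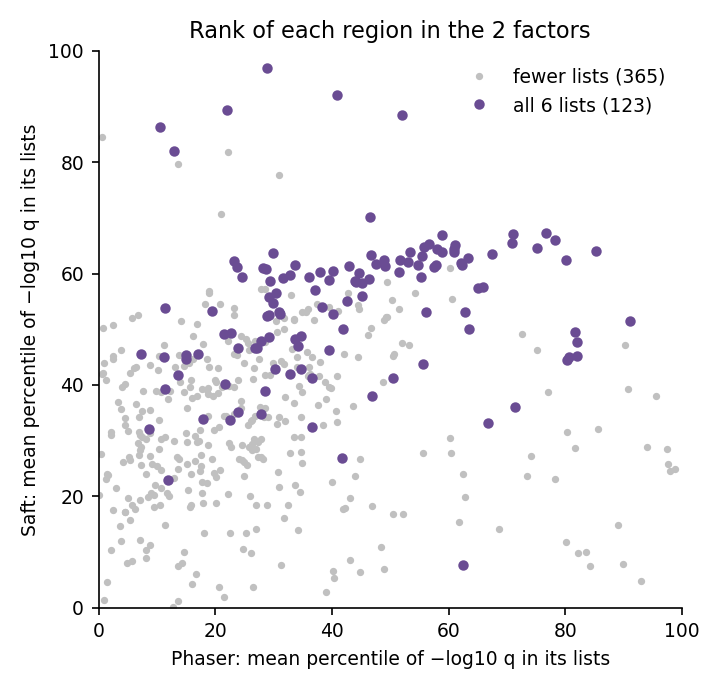
Each point is an autosomal region with both factors, placed by the mean percentile of −log10 q in its Phaser lists (x axis) and in its Saft lists (y axis). The 123 regions in all 6 lists are purple and the other 365 are grey. The upper right corner, above 75 on both axes, is empty. Few points could be looked for there, since 32 members reached 75 in Phaser and 10 in Saft.

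To ask whether peaks at shared places differ from peaks of the same factor elsewhere, each library was compared with regions built from the other 5 lists, so that its own values had no part in the choice. Its autosomal peaks that met a region of both factors were set against those that met a region of its own factor alone. In Phaser replicate 1 the median fold was 4.40 at 205 shared and 5.55 at 3054 unshared peaks. In replicate 2 it was 3.48 at 216 and 4.30 at 3169. For Saft the shared peaks came first with 3.52 against 6.85 and 3.46 against 5.62 in the replicates of clone 9C. In clone 4H it was 3.36 against 7.77 and 3.39 against 8.01, so shared peaks had the lower median in 6 of 6 libraries.

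The mean log2 difference was −0.79 ± 0.41 (SD, n = 6 libraries), that is 0.578 of the fold at unshared peaks (exact sign-flip permutation test, two-sided, p = 0.0312, the smallest that 6 libraries allow). The 6 libraries share their regions and come from 3 clones, so this p compares libraries and does not cover the choice of regions. The peak caller's background under the summits hardly moved with this difference. It was recovered from fold and p and is on the peak caller's scaled signal. Its median was 5.66 at shared and 5.25 at unshared peaks of Phaser replicate 1, and 6.67 and 6.83 in replicate 2. In the 4 Saft libraries it was between 0.983 and 1 times as high at shared as at unshared peaks. Recovered ChIP reads at the summit fell with the fold, from 122 and 103 to 99 and 84.5 in Phaser and from 162 to 195 down to 70 to 85 in Saft. These reads are counted before scaling, by 0.289 to 0.435 per library, and are not in the unit of the background.

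Shared peaks were also narrower. In Phaser the median widths were 390 bp against 486 bp and 314.5 bp against 360 bp in replicates 1 and 2. In Saft they were 307 bp against 644 bp and 314 bp against 594 bp in clone 9C, and 301 bp against 659 bp and 299 bp against 710.5 bp in clone 4H. The mean log2 difference was −0.81 ± 0.45 (SD, n = 6 libraries, lower in 6 of 6, exact sign-flip permutation test, two-sided, p = 0.0312, again the smallest possible).

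The fold difference was −0.32 ± 0.020 (log2, SD, n = 2) in Phaser and −1.03 ± 0.25 (SD, n = 4) in Saft. Saft differed from Phaser by −0.71 (exact permutation test of the factor over libraries, two-sided, p = 0.0667). With 2 libraries against 4, that is the smallest p possible, so the test cannot pass 0.05. With means of log2 fold in place of medians the difference was −0.45.

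This picture turned when wide peaks were set aside, a comparison chosen after the data were seen. Of the shared Saft peaks 89.5% to 91.9% were at most 500 bp wide, but only 42.0% to 46.2% of the unshared ones. In Phaser the shares were 67.3% and 81.5% against 52.4% and 69.2%. Among peaks up to 500 bp, shared Saft peaks had the higher median fold in 4 of 4 libraries. The medians were 3.40 against 3.01 and 3.32 against 2.87 in clone 9C, and 3.28 against 3.04 and 3.32 against 3.02 in clone 4H. Shared Phaser peaks stayed lower in 2 of 2, with 3.91 against 4.50 and 3.25 against 3.75. The mean log2 difference was 0.16 ± 0.043 (SD, n = 4) in Saft and −0.21 ± 0.00041 (SD, n = 2) in Phaser, and the factors differed by 0.36 (exact permutation test over libraries, two-sided, p = 0.0667, the smallest possible). Over the 6 libraries together the difference was 0.037 (exact sign-flip permutation test, two-sided, p = 0.625), no longer a call.

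**Figure D4:**
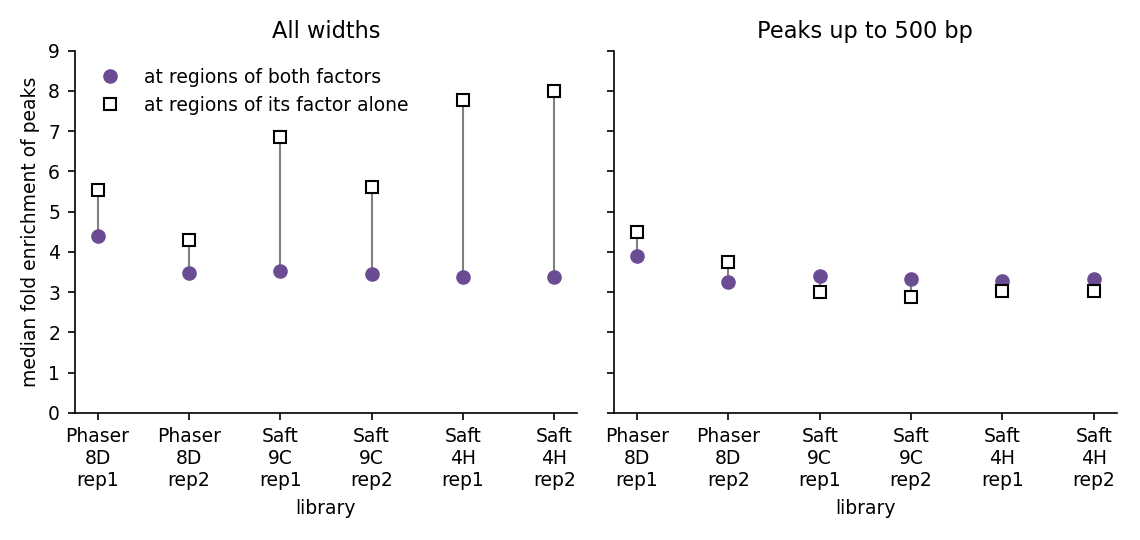
Median fold enrichment of autosomal peaks in each library at regions of both factors (filled circles) and at regions of its own factor alone (open squares), with regions built from the other 5 lists. With all widths (left) the circle is the lower mark in 6 of 6 libraries, and among peaks up to 500 bp (right) it is the upper mark in the 4 Saft libraries.

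The Phaser and Saft summits of a shared region usually lay close together. Taking for each factor the median summit of the strongest peak in its lists, the distance had a median of 36 bp and quartiles of 14 and 77.6 bp over the 488 members. It was at most 25 bp at 197 members (40.4%), at most 50 bp at 295 (60.5%) and at most 100 bp at 390 (79.9%). By the number of lists the median ranged from 27 to 39 bp in 7 of the 8 combinations. The exception was both Phaser lists with 1 Saft list, at 112.5 bp over 33 regions.

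At the 123 regions in all 6 lists, summits of different factors were farther apart than summits of the same factor, by a margin that this design cannot test to 0.05. The median distance was 23 bp between the Phaser replicates, 19 bp and 31 bp within Saft clones 9C and 4H, and 21 to 28 bp between the Saft clones. Between a Phaser and a Saft library it was 29 to 42 bp over 8 pairs. The means were 35.9 ± 4.32 bp (SD, n = 8 pairs) across and 23.7 ± 4.27 bp (SD, n = 7 pairs) within factors, a difference of 12.2 bp (exact permutation test of the factor over the 6 libraries, one-sided, p = 0.0667, the smallest of 15 assignments). The pairs share libraries and the ranges overlap, since the replicates of clone 4H lay 31 bp apart. Distances over 200 bp were found at 11 to 15 of the 123 regions across factors and at 0 to 5 within a factor. The difference shrank to 6.75 bp without Phaser replicate 2, to 5.59 bp with a reciprocal overlap of 50% asked for, and to 4.21 bp with −log10 q of 10 or more.

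**Figure D5:**
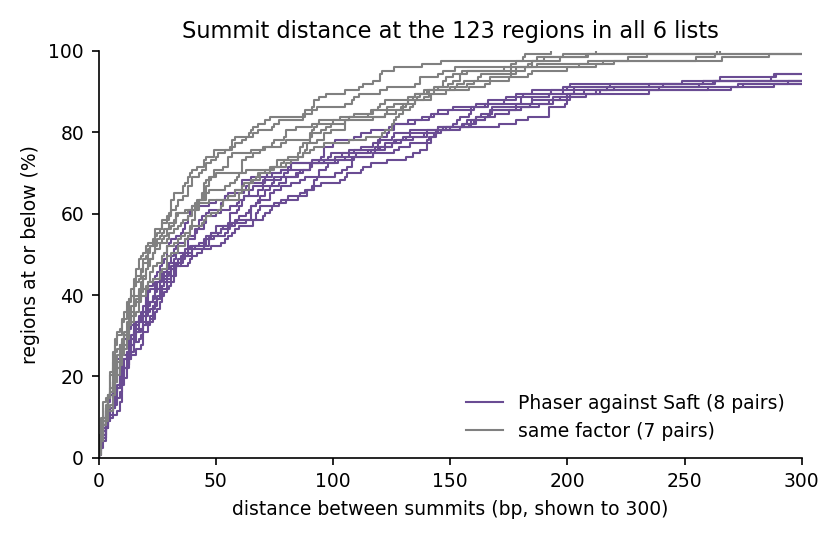
Cumulative percent of the 123 regions in all 6 lists by the distance between summits of a pair of libraries, in bp. The 8 Phaser against Saft pairs (purple) have medians of 29 to 42 bp and the 7 same-factor pairs (grey) of 19 to 31 bp.

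A direct overlap of a Phaser and a Saft peak at each of the 488 members was fixed by the rule. Merged peaks are chained by overlap, and each is either Phaser or Saft. The best overlap of a Phaser and a Saft peak had a median of 261.5 bp and was 100 bp or more at 485. For strongest peaks of a Phaser and a Saft list, one lay wholly inside the other in 53.8% to 75.4% of pairs, and 77.3% to 83.0% overlapped by 50% of the wider peak. With a reciprocal overlap of 50% between any pair asked for, 436 regions remained. The members were 153 to 2661 bp wide, with a median of 364 bp, and 463 of them held at most 1 peak of each list.

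At the edge of the rule, the member with the smallest overlap was 3L, 12627992 to 12628338. A Phaser replicate 1 peak (3.75-fold) and a peak of clone 9C replicate 2 (2.77-fold) overlapped there by 40 bp, with summits 175 bp apart. Just outside, a Phaser replicate 1 peak at 2L, 7809472 to 7809661 (2.69-fold) and a peak of clone 9C replicate 2 at 7809672 to 7809851 (2.48-fold) left a gap of 10 bp, with summits 184 bp apart. Only 7 pairs of a Phaser region and a Saft region, each alone, had a gap under 300 bp.

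The first group named by rule was the 6 regions in all 6 lists whose lower factor percentile was highest. Their Phaser percentiles were 70.9 to 85.2 and their Saft percentiles 64.0 to 67.2, so they were above the middle but not at the top in Saft. They were 587 to 944 bp wide, above the median of 364 bp. At 3R, 5678479 to 5679113, fold was 6.24 and 5.08 in the Phaser replicates, 5.93 and 6.69 in clone 9C and 8.23 and 6.40 in clone 4H, with summits 60 bp apart. At 3R, 6880901 to 6881628, it was 7.84 and 6.26 for Phaser, 5.91 and 5.65 for clone 9C, and 6.95 and 6.97 for clone 4H, with summits 8 bp apart. All 6 libraries were thus at 5-fold or more at each place, and the values of the factors overlapped.

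At 2R, 5864490 to 5865258, Phaser had 8.17 and 6.44, clone 9C 8.43 and 8.69, and clone 4H 6.94 and 6.32, with summits 132 bp apart. At 2R, 5535243 to 5535829, Phaser had 7.17 and 5.95, clone 9C 6.70 and 4.84, and clone 4H 6.55 and 6.76, with summits 11.5 bp apart. Replicate 2 of clone 9C was the low one of the Saft libraries there. The other regions of this group were 3R, 24959081 to 24959674 (Phaser 6.62-fold ± 1.25, SD, n = 2; Saft 5.03-fold ± 0.837, SD, n = 4) and 3R, 2982865 to 2983808. At the latter the Saft libraries spread from 3.41 in replicate 1 of clone 4H to 7.38 in replicate 1 of clone 9C.

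The 4 regions in all 6 lists that leaned most to Phaser had Phaser percentiles of 62.6 to 91.1, while their Saft percentiles ran from 7.61 to 51.4. At 3R, 20508293 to 20509005, fold was 9.30 and 7.18 in the Phaser replicates, 3.66 and 3.86 in clone 9C, and 3.24 and 3.45 in clone 4H. At 3L, 10939286 to 10939872, it was 8.34 and 7.31, then 3.37 and 4.51, then 2.64 and 3.70, in the same order. In both places the Phaser and Saft values did not overlap, as the choice by rank difference makes likely. The others were 3L, 21164711 to 21165170 (5.96-fold ± 0.0586 for Phaser and 3.31-fold ± 0.579 for Saft) and 3R, 5358347 to 5359357 (5.34-fold ± 1.64 and 2.20-fold ± 0.186). Their summits lay 44.5 to 312.5 bp apart.

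The 32 members with a Phaser percentile of 75 or more had a median width of 856 bp, a median summit distance of 191.75 bp and a median Saft percentile of 35.1. All 32 had both Phaser lists, and 12 of them had a single Saft list. The summits were over 200 bp apart at 16. The widest separation of this kind was at 3L, 10733154 to 10734864, where Phaser reached 7.92 and 11.2, clone 4H had 2.61 and 3.27, clone 9C had no peak, and the summits were 1177.5 bp apart.

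The 4 regions in all 6 lists that leaned most to Saft were 1496 to 2661 bp wide, with Phaser percentiles of 10.5 to 28.9. At 2R, 11434504 to 11436488, fold was 11.8 and 8.63 in clone 9C and 12.5 and 12.4 in clone 4H, against 2.54 and 3.26 for Phaser, with summits 713.5 bp apart. At 3R, 26661924 to 26663827, it was 11.3 and 11.0, then 10.6 and 9.83, against 2.96 and 3.25, at 1003 bp. At 2R, 19679383 to 19682043, the widest member at 2661 bp, it was 11.3 and 9.26, then 9.82 and 14.6, against 4.08 and 2.64, at 1333 bp, the largest distance of the set. In all 3 places the lowest Saft value stood well above the highest Phaser value, as the choice by rank difference makes likely.

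The last of these 4 had its summits close together. At 2R, 20470258 to 20471753, Saft fold was 14.4 and 11.9 in clone 9C and 14.4 and 13.3 in clone 4H, and Phaser fold 5.21 and 2.65, with summits 38.5 bp apart. The other wide members were 2L, 2470441 to 2472904 (2464 bp, 13.4-fold ± 3.14 for Saft and 4.39-fold ± 0.781 for Phaser, 957.5 bp) and 3L, 16015133 to 16017768 (2636 bp, 7.51-fold ± 2.21 for Saft, and 3.32-fold in the single Phaser list, 877.5 bp).

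All 10 members with a Saft percentile of 75 or more were 824 bp or wider, with a median of 1859 bp. Their summits were over 200 bp apart at 8 of 10, with a median of 679.25 bp. Their Phaser percentile had a median of 22.0 and did not exceed 52.0. Great width was not particular to members, as Saft regions in all 4 lists without Phaser had a median of 1363 bp. The 446 members under 75 in both factors had a median width of 350 bp and a median summit distance of 32.5 bp, with 19 over 200 bp. Of all 43 members over 200 bp, 24 were thus in the top 25% of one factor. These subsets were cut by rank after the values were known and are given without a test.

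Among the regions in all 6 lists, the 3 with the closest summits were 299, 326 and 502 bp wide. At 2L, 6306694 to 6306992, the factor summits fell on the same base, with fold of 3.47 and 2.89 for Phaser, 4.50 and 4.39 for clone 9C, and 2.87 and 3.55 for clone 4H. At 2L, 15347259 to 15347584, they were 2 bp apart, with 2.55 and 2.69, then 3.46 and 3.73, then 3.39 and 3.16. At 2R, 9939373 to 9939874, they were 1.5 bp apart, with 4.02 and 5.48 for Phaser, 8.03 and 7.54 for clone 9C and 7.94 and 6.85 for clone 4H. The factors overlapped in value at the first region, and Saft was the higher in every library at the other ones.

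The members were spread over the 4 arms much as the other regions were. There were 163 on 3R, 132 on 3L, 97 on 2R and 96 on 2L, or 5.88, 5.59, 4.64 and 4.30 per Mb, with each arm taken to end at its last peak. They made up 7.75% to 8.79% of the merged regions of an arm, and the Wilson intervals of all 4 arms overlapped. The 123 regions in all 6 lists were divided as 43, 34, 26 and 20 in the same order of arms.

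Most members had no other member within 10 kb. The median gap from a member to the nearest other member, on either side, was 52.4 kb. Another lay within 10 kb of 89 members (18.2%) and within 5 kb of 52 (10.7%). The like share within 10 kb was 76.5% for regions of Phaser alone and 60.3% for those of Saft alone. Members were also sparser, at 5.16 per Mb against 44.7 and 13.4. The gap that such sparsity alone would give was not worked out. A region of Phaser alone lay within 5 kb of 193 members (39.5%), and another such region lay as near to 60.4% of the regions of Phaser alone. A region of Saft alone lay within 5 kb of 87 members (17.8%), and another such region lay as near to 51.4% of the regions of Saft alone. Between the single-factor sets the shares were lower than for members. Phaser alone lay within 5 kb of 18.9% of the regions of Saft alone, and Saft alone within 5 kb of 5.40% of those of Phaser alone. The number of regions differs between these sets, and no test of spacing was made.

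Linked at gaps of up to 10 kb, 399 members were alone, 29 runs had 2, 7 had 3 and 2 had 5. One run of 5 lay at 2L, 12003295 to 12012465, where the members were 537 to 739 bp wide with summits 12 to 75 bp apart. The other lay at 3R, 12046552 to 12068478, with widths of 246 to 932 bp and summits 9 to 126.5 bp apart. All 10 members of these runs had a single Phaser list, and their mean fold was 2.15 to 4.37 in Phaser and 2.67 to 3.46 in Saft.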

How the data were processed

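Members and comparisons were chosen with earlier results of these data known. The authors deposited 1 narrowPeak list for each ChIP library. Per the submitters' processing notes, Trim Galore 0.6.2, Bowtie 1.2.2, bedtools 2.27.1, MACS2 2.1.2.1 and build dm3 were used, without order or settings. Per the labels, cells were fixed in 1% formaldehyde for 10 min and sonicated to 200 to 1000 bp. The deposited fold is a linear ratio at the summit. The authors' −log10 p and −log10 q come from the peak caller. The deposited score, the whole part of 10 times −log10 q, was not used. The lowest −log10 q of a list was 1.30 to 1.44.

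The value of a region in a list is that of its strongest peak by −log10 q. Regions were named by rule: in all 6 lists, the 6 highest by the lower factor percentile and the 4 leaning most to each factor, then the widest, those of extreme summit distance and those at the edge of the rule. ChIP reads and background were recovered from deposited fold and −log10 p. MACS2 adds 1 to pileup and background before the ratio. The pileup is a whole read number times 1 factor per library (0.289 to 0.435), and the background is on the scale of the pileup. Read numbers within 0.03 of a whole number were obtained for 100% of peaks. The factor was fitted to this end, and the best solution was taken for each peak. With a wrong factor the share was 3.95% to 7.12%, but only over peaks with a single possible solution. These shares are thus not like for like. No interval recurred in another list (0 found). Depth is unknown, and intervals and limits cover counting error only. Scripts were tested on simulated data. Python 3.11.15, numpy 2.4.6, scipy 1.17.1, pandas 2.3.3 and statsmodels 0.14.6 were used. No sequence is shown, since no genome of dm3 was used here.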

Additional observations from a re-analysis of the deposited data

Results flagged for a closer look

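The fold difference between shared and unshared peaks up to 500 bp had opposite signs in the factors. It was below 0 in both Phaser libraries and above 0 in the 4 Saft libraries, and Saft minus Phaser was 0.365 on the log2 scale (exact permutation test, two-sided, p = 0.0667, the smallest possible).

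At 2R, 5535243 to 5535829, clone 9C replicate 2 had a fold of 4.84 beside 6.55 to 6.76 in the other Saft libraries, and its gap to them was 0.89 of the range of the 4. For the log2 difference in background between shared and unshared Saft peaks, clone 4H replicate 1 stood apart at −0.025, with a gap of 1.00 of the range, because the other libraries lay at 0 to 6 decimals. These were 2 of 36 groups of 4 examined, and chance flags about 1 in 20.

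Outside the arms described, 80 merged X regions held both factors, 10% of the 799 on the X. Heterochromatic scaffolds held 4 such regions.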

How the results depend on the processing

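Of 81 alternative values of 6 results, 64 kept their direction and side of the threshold or, for values with no test, moved little. Another 8 lost the call, 7 moved and 2 reversed. The 64 include 15 values of the fold difference between factors and 13 of the summit difference. The exact permutation p of either result cannot go below 0.0667, so these values could not cross the threshold of 0.05. They show a kept direction only. By the merging rule, direct overlap had to keep the same 488 members. Its member count, median summit distance and summit difference therefore could not move. The number of shared regions was 57 with −log10 q of 10 or more and 123 with all lists asked for, and 209 to 483 with 1 library left out, the lowest without Phaser replicate 1. The median summit distance was 30.25 bp with reciprocal overlap of 50%, 29 bp with summits within 100 bp, 23.5 bp with −log10 q of 10 or more, 13 bp between nearest summits, and 35 to 39 bp with 1 library left out. Limited to peaks up to 500 bp, chosen after seeing the data, the fold difference over libraries turned to 0.037 and that of Saft against Phaser to 0.36. With 1 Saft library left out, the fold difference was −0.90 to −0.75, the width difference −0.92 to −0.83 and the difference between factors −0.94 to −0.71. Those tests then had 5 libraries, and their exact sign-flip p of 0.0625 was the smallest possible. With a Phaser library left out these 3 could not be computed, as the other list has no partner. The summit difference was 6.75 to 13.7 bp with 1 library left out, 4.21 bp with −log10 q of 10 or more and 4.38 bp with summits within 100 bp. That last setting selects by summit distance itself, so its lower values of 29 bp and 4.38 bp were largely built in. Replicate numbers are shared by the clones, but the deviations of same-numbered libraries correlated at −0.038, 0.030 and 0.084 over 123 regions, so the numbers were not taken as pairs. Under the replicate block, the difference between factors of −0.71 and the summit difference of 12.2 bp both had an exact permutation p of 0.111.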
